A study of Felis catus with 8 samples.

Results

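Liver expression of the heat shock proteins, the DNAJ proteins and the BAG co-chaperones was compared between male cats raised on 4 diets. The genes were chosen by symbol alone: every probe set annotated to a single gene whose symbol starts with HSPA, HSPB, HSPD, HSPE, HSPH, HSP90 or DNAJ, or is BAG1, BAG2, BAG3, BAG4 or BAG5. This gave 863 of 257101 probe sets and 90 of 18701 genes. After dim probe sets were left out, 88 of these genes and 496 of their probe sets remained, among 17910 tested genes. DNAJC28 and HSP90AA2 had no probe set above the median of the array and were not tested.

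The array was a human whole-transcript array (HuGene 1.0 ST), and cat RNA binds its probes to the degree that both species share the sequence. Of the 88 tested genes, 73 had their symbol or a synonym in a table of cat genes. The rule also takes 10 tested HSP90 symbols that name human pseudogenes. It takes HSPBP1 and HSPBAP1 as well, which start with HSPB but are not small heat shock proteins.

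All animals were males aged 9 months, and livers were snap-frozen. Controls ate standard chow, and the MSG group ate chow to which 1.125% monosodium glutamate (MSG) had been added. In the trans-fat/HFCS group 8.6% of the diet was trans fat and 24% was high-fructose corn syrup (HFCS). Animals of the combined group received all 3 additions. Dams received the diet from 3 weeks before mating through nursing, and the offspring were weaned onto it, so the exposure covered gestation, nursing and growth. Each diet had 2 arrays, called biological replicates in the labels. Neither litters nor pooling of RNA are mentioned in them, so p-values measure the spread between these arrays, which may be in part technical.

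Heat shock proteins are chaperones that bind unfolded proteins. The HSPA (HSP70) proteins hold and release clients in a cycle driven by ATP. DNAJ proteins deliver clients and start ATP hydrolysis, and BAG proteins, HSPH1, HSPBP1 and the HSPA4 group help to release the nucleotide. HSP90 proteins complete the folding of receptors and kinases, HSPD1 and HSPE1 form the folding chamber of mitochondria, and the small HSPB proteins hold unfolded proteins without ATP. In liver, the chaperones of the endoplasmic reticulum (ER) fold the proteins that hepatocytes secrete.

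The 8 arrays had a median intensity of 5.25 to 5.28. Of 12 hepatocyte markers 11 were tested. Their summed level lay between log2 11.98 and 12.20, and the albumin gene ALB between log2 9.63 and 10.06. Skeletal muscle markers stood apart on both trans-fat/HFCS arrays: the summed level of 14 genes was log2 9.74 and 9.75 there and between 7.79 and 7.92 on the other 6 arrays. All 14 were tested, and 11 were called higher on the trans-fat/HFCS diet than on control, 10 higher in diets with trans fat and HFCS and 9 lower in diets with MSG. The summed levels of the other lists ranged from log2 7.38 to 7.95 (smooth muscle and stellate cells), 7.43 to 7.85 (macrophages), 6.34 to 6.61 (lymphocytes), 6.27 to 7.02 (neutrophils), 5.78 to 6.32 (erythroid cells), 5.95 to 6.42 (cholangiocytes) and 7.04 to 7.36 (endothelium). In a whole piece of liver, fewer cells of a type and less RNA per cell cannot be told apart.

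The first comparison set the 4 arrays of diets with trans fat and HFCS against the 4 without, averaged over MSG. BAG5, a co-chaperone of HSPA proteins, rose 3.35-fold, and 3 DNAJ genes, DNAJB8, DNAJB13 and DNAJC17, rose 1.71-, 1.60- and 1.38-fold. The mitochondrial DNAJC30 was 1.72-fold lower and the ER co-chaperone DNAJB11 1.43-fold lower. The probe set named for HSP90B3P, a human pseudogene of the ER chaperone gene HSP90B1, was 2.06-fold lower. The calls of DNAJC17 and DNAJB11 each held in only 2 of 17 alternative settings, and DNAJC17 was low on the control diet alone. The value of BAG5 averages 2 probe sets, with log2 changes of 3.27 and 0.22.

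Each gene's level is the mean log2 intensity of its kept probe sets, and a gene was called at a Benjamini-Hochberg adjusted p under 0.05 in limma over all 17910 genes. By this rule 7 of 88 members (7.95%) were called, beside 7.66% of all genes. Of these 4 were higher, beside 4.44% of all genes, and 3 were lower, beside 3.22%. The members' share was near that of all genes. Both counts fell when an array was left out: 3 to 6 members and 2.43% to 6.88% of all genes were then called, the fewest without MSG array 1 or either control array. At an unadjusted p under 0.05 there were 22 members (25%), against 24.5% of all genes. The median log2 change was 0.02 over the members and 0.02 over all genes. Levels of the 4 arrays with trans fat and HFCS did not overlap those of the other 4 in 13 of 88 members (14.8%), beside 15% of all genes. In a called gene a lack of overlap comes from the values that gave the call, so it is no separate support.

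**Figure D1:**
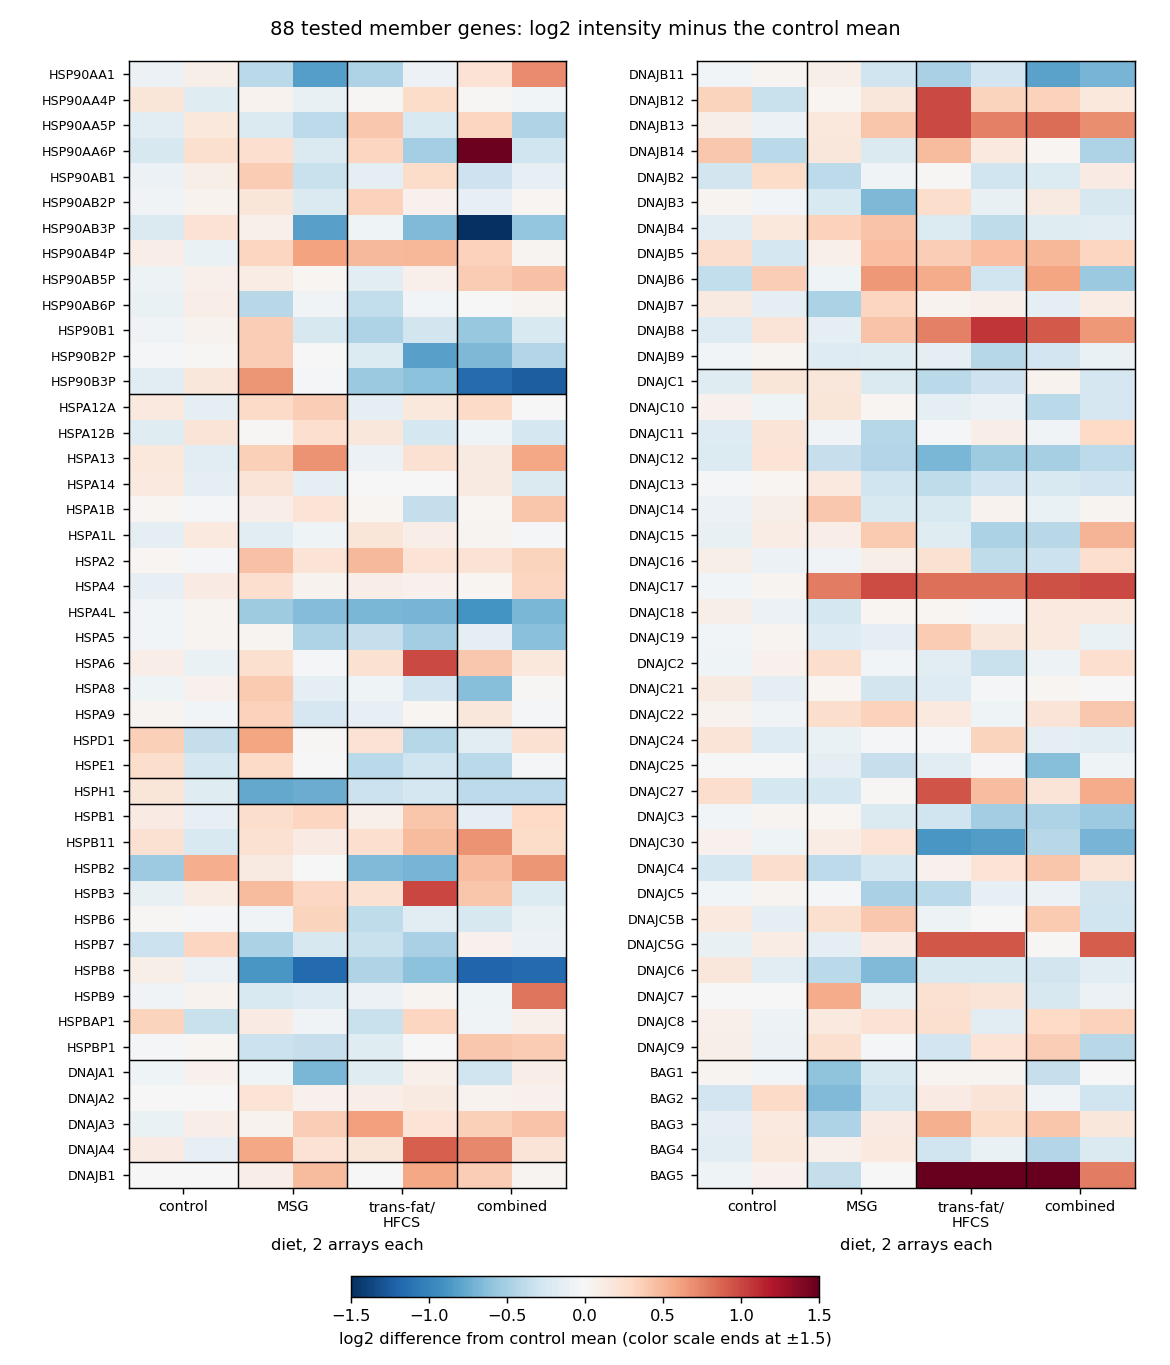
Log2 intensity of each of the 88 tested genes on each of the 8 arrays, minus the mean of both control arrays; rows are genes grouped by family, columns are arrays grouped by diet, red is higher and blue lower than control. Most rows are pale on all diets, while BAG5, DNAJB8 and DNAJB13 are red on both diets with trans fat and HFCS, DNAJC17 is red on all diets but control, and HSPB8 is darkest blue on both diets with MSG; the color scale ends at 1.5 in either direction.

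**Figure D2:**
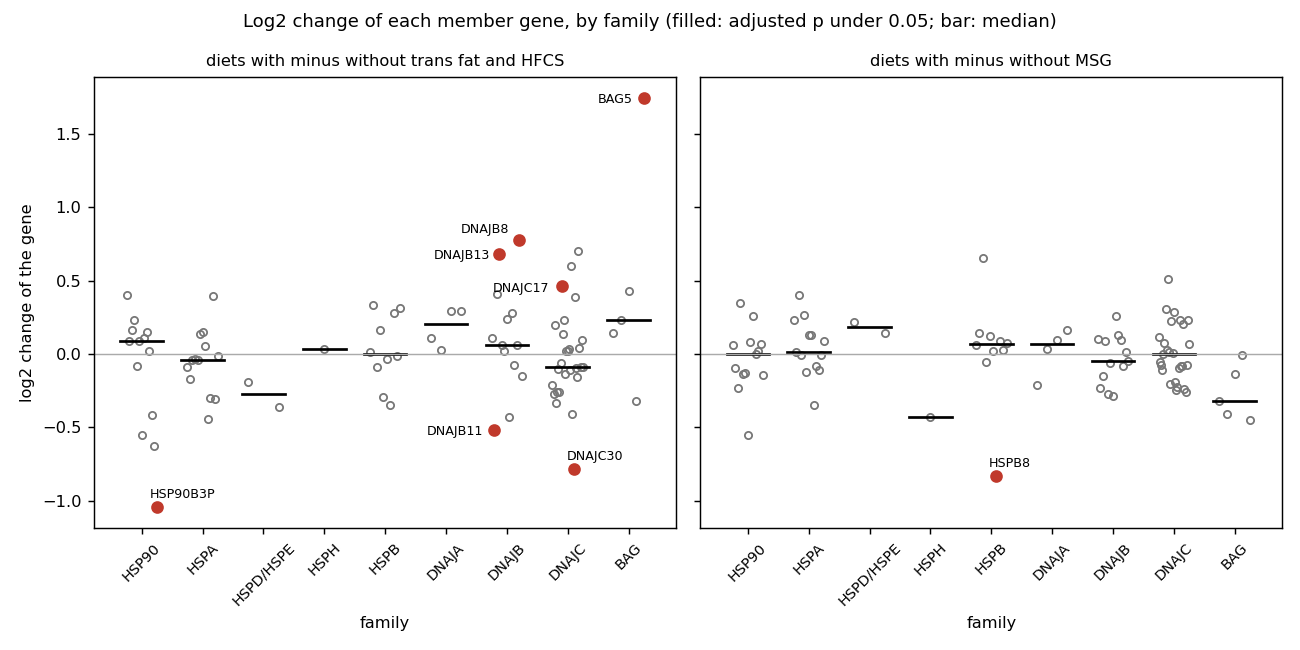
Log2 change of each member gene by family (vertical axis), for diets with minus without trans fat and HFCS (left) and with minus without MSG (right). Filled points passed an adjusted p of 0.05 and are named, open points did not, and bars are family medians; 7 genes are filled on the left and 1 on the right.

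Among the BAG co-chaperones, BAG5 carried the difference. BAG5 holds several BAG domains, which bind the ATPase domain of HSPA proteins. Its mean log2 intensity was 4.08 and 4.20 on the control arrays, 3.78 and 4.14 on MSG, 6.29 and 6.02 on trans-fat/HFCS and 5.97 and 4.90 on the combined diet. All 4 arrays with trans fat and HFCS lay above the other 4, and combined-diet array 2 was the lowest of them. The log2 change was 1.75 (SE 0.22, adjusted p = 0.0036 in limma).

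BAG5 was also called against control on the trans-fat/HFCS diet (log2 2.02, SE 0.31, adjusted p = 0.016), 4.04-fold higher. On the combined diet against control it was 1.30 higher (SE 0.31, adjusted p = 0.095). The gene value rests on 2 of 7 probe sets. One moved by 3.27, from between 2.71 and 2.84 on the 4 arrays without trans fat and HFCS to 6.51 and 6.63 on trans-fat/HFCS and 6.24 and 4.75 on the combined diet. The brighter one moved by 0.22 and lay between 4.80 and 6.07 over the 8 arrays, so the probe sets of BAG5 disagreed in size. With the brightest probe set the call ended (log2 0.22, adjusted p = 0.63). Without both trans-fat/HFCS arrays, where muscle markers were high, BAG5 stood 1.48 higher on the combined than on the MSG diet and did not pass (adjusted p = 0.075). The call held in the other 15 of 17 alternative settings, with a log2 change between 0.22 and 1.84 over all 17. The call against control on the trans-fat/HFCS diet ended without either control array or either trans-fat/HFCS array (log2 1.88 to 2.15, adjusted p between 0.066 and 0.11) and with the brightest probe set (log2 0.25, adjusted p = 0.75).

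The other BAG genes did not pass. BAG3, which joins HSPA proteins to HSPB8 in the clearance of damaged proteins, stood at 4.42 and 4.72 on control, 4.11 and 4.70 on MSG, 5.10 and 4.85 on trans-fat/HFCS and 4.98 and 4.75 on the combined diet. Its 4 arrays with trans fat and HFCS lay above the other 4, by a margin smaller than the spread within either set (log2 0.43, SE 0.16, adjusted p = 0.15). BAG1 (0.14, SE 0.14), BAG2 (0.23, SE 0.16) and BAG4, which binds death receptors (-0.32, SE 0.13), had adjusted p of 0.57, 0.42 and 0.17 in limma.

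Of the 13 tested DNAJB genes 3 were called, 2 higher and 1 lower (23.1%), beside 7.66% of all genes, and the family median was 0.06. Whether a family differed from all genes was not tested. Both genes that rose are known from testis: DNAJB13 is a part of the axoneme of sperm and cilia, and DNAJB8 is expressed in developing sperm cells. DNAJB13 stood at log2 3.77 and 3.60 on control, 3.84 and 4.10 on MSG, 4.67 and 4.45 on trans-fat/HFCS and 4.52 and 4.39 on the combined diet. The diets with trans fat and HFCS did not overlap the others. The change was 0.68 (SE 0.13, adjusted p = 0.017), and 0.87 (SE 0.18, adjusted p = 0.041) against control on the trans-fat/HFCS diet.

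DNAJB13 was read by 9 kept probe sets, of which 3 passed when each probe set was tested on its own, with changes of 2.94, 2.08 and 1.32. The other 6 moved by between -0.57 and 0.66. The brightest rose from between 4.84 and 5.74 on the 4 arrays without trans fat and HFCS to between 8.02 and 8.71 on the 4 with them. With the median of the probe sets the change of DNAJB13 was 0.13 and did not pass (adjusted p = 0.76). The call also ended without control array 1 or 2, MSG array 1 or trans-fat/HFCS array 1 (adjusted p between 0.051 and 0.072) and without both trans-fat/HFCS arrays (log2 0.49, adjusted p = 0.23). With the replicate number as a block the call of DNAJB13 against control on the trans-fat/HFCS diet ended (adjusted p = 0.068), as it did without any 1 array of the control, MSG or trans-fat/HFCS diet (0.061 to 0.23), with dim probe sets kept in (log2 0.40, 0.076) and with the median of the probe sets (log2 0.39, 0.54).

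DNAJB8 stood at 2.49 and 2.87 on control, 2.55 and 3.11 on MSG, 3.44 and 3.75 on trans-fat/HFCS and 3.60 and 3.34 on the combined diet. These levels are near the filter of 2.43. The 4 arrays with trans fat and HFCS did not overlap the other 4, which was so in 15% of all genes. DNAJB8 was called on these same values, so this is no separate support. The change was 0.78 (SE 0.17, adjusted p = 0.029), from probe sets at 1.26, 1.08 and -0.01. It was lost on leaving out any single array but MSG array 2 and combined-diet array 2 (log2 0.64 to 0.87, adjusted p between 0.05 and 0.11), with the median of the probe sets (adjusted p = 0.16) and without both trans-fat/HFCS arrays (log2 0.64, adjusted p = 0.23).

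DNAJB11 is an ER protein that brings clients to HSPA5. It stood at 5.97 and 6.05 on control, 6.09 and 5.71 on MSG, 5.52 and 5.73 on trans-fat/HFCS and 5.21 and 5.31 on the combined diet. MSG array 2 lay just below trans-fat/HFCS array 2, so the sets overlapped by that pair, and both combined-diet arrays were the lowest. The change was -0.51 (SE 0.13, adjusted p = 0.047). All 9 kept probe sets had a negative change, from -1.47 to -0.04, and none passed on its own. The brighter members of the family also include DNAJB9, an ER protein induced by unfolded proteins (-0.15, SE 0.12, adjusted p = 0.49), and DNAJB4, a cytosolic partner of HSPA8 (-0.43, SE 0.12, adjusted p = 0.070). The call of DNAJB11 was near the threshold. It ended without any 1 array (log2 -0.61 to -0.44, adjusted p between 0.051 and 0.14) and with 7 other settings, among them quantile normalization (0.052) and the replicate block (0.074).

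**Figure D3:**
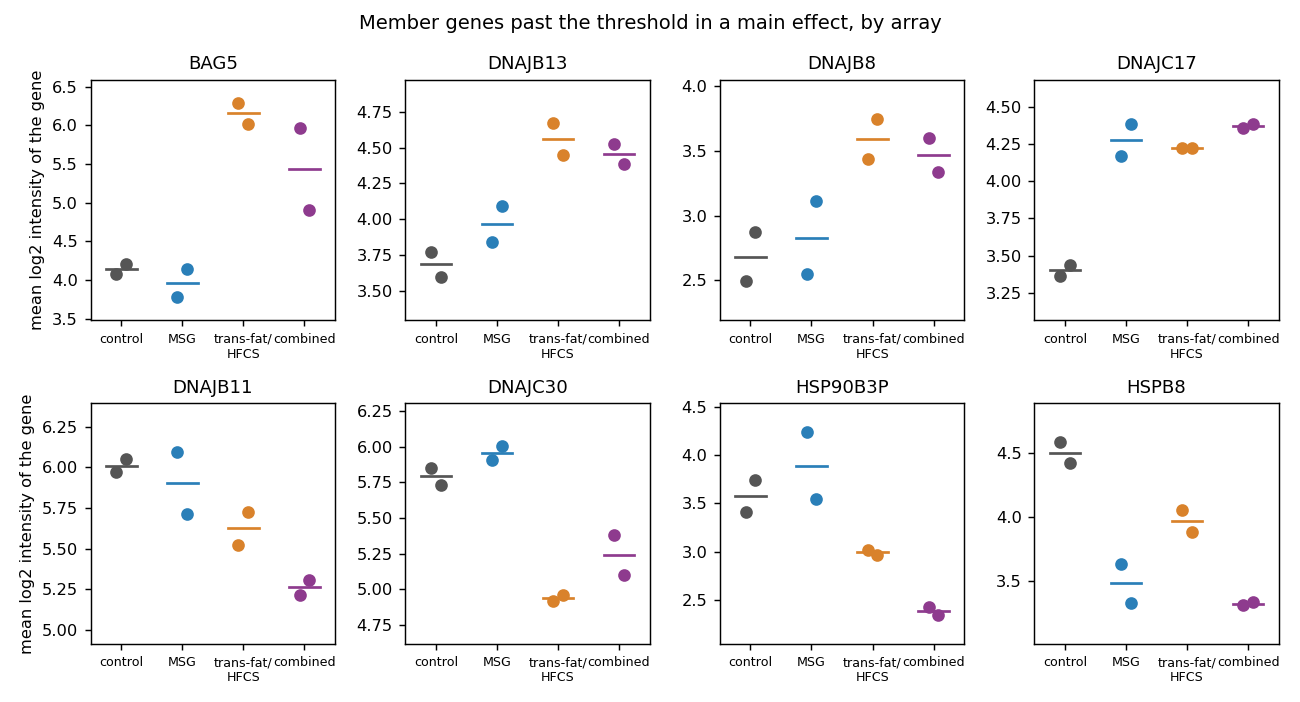
Mean log2 intensity (vertical axis) of the 8 genes past the threshold in a main effect, on each of the 8 arrays; points are arrays, colored by diet, and bars are means of both arrays of a diet. BAG5, DNAJB13 and DNAJB8 are high on both diets with trans fat and HFCS, DNAJC30 and HSP90B3P are low there, DNAJC17 is low on the control diet, and HSPB8 is low on both diets with MSG.

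Of the 27 tested DNAJC genes 1 rose and 1 fell (7.41%), beside 7.66% of all genes, with a median of -0.09. DNAJC30 is a J protein of the inner mitochondrial membrane that acts on the ATP synthase and on respiratory complex I. It stood at 5.85 and 5.73 on control, 5.91 and 6.00 on MSG, 4.92 and 4.96 on trans-fat/HFCS and 5.38 and 5.10 on the combined diet. The sets did not overlap, and the trans-fat/HFCS diet was lower than the combined diet on both arrays. The change was -0.78 (SE 0.12, adjusted p = 0.0077), and -0.86 (SE 0.17, adjusted p = 0.038) against control on the trans-fat/HFCS diet.

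A single probe set of DNAJC30 carried it, which fell from between 8.27 and 8.54 on the 4 arrays without trans fat and HFCS to 6.49 and 6.42 on trans-fat/HFCS and 7.17 and 6.99 on the combined diet. The other kept probe set, at 3.17 to 3.68, moved by 0.05. The call held in 16 of 17 settings and ended without both trans-fat/HFCS arrays (log2 -0.71, adjusted p = 0.10). Its size varied between -1.62 and -0.35 over all 17, and it was smallest with dim probe sets kept in. The call against control on the trans-fat/HFCS diet ended with dim probe sets kept in (log2 -0.39, adjusted p = 0.10), with the median of the probe sets (0.13), with the replicate block (0.063) and without any 1 array of the control, MSG or trans-fat/HFCS diet (0.062 to 0.23).

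DNAJC17, a J protein found with the splicing machinery, followed another pattern. It stood at 3.37 and 3.44 on control, 4.17 and 4.38 on MSG, 4.23 and 4.22 on trans-fat/HFCS and 4.36 and 4.39 on the combined diet. Both control arrays were below all 6 others, and the other 3 diets lay close to each other. Against control the changes were 0.82 on trans-fat/HFCS (SE 0.16, adjusted p = 0.035), 0.97 on the combined diet (SE 0.16, adjusted p = 0.033) and 0.88 on MSG (SE 0.16, adjusted p = 0.095). These 3 contrasts share the control arrays. With trans fat and HFCS averaged over MSG the change was 0.46 (SE 0.11, adjusted p = 0.044), with MSG averaged over the base diet 0.51 (SE 0.11, adjusted p = 0.17), and the interaction was -0.73 (SE 0.23, adjusted p = 0.41).

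The brightest probe set of DNAJC17 lay between 6.30 and 7.12 and moved by 0.08, while 3 dim ones moved by 1.04, 0.56 and 0.15. With the brightest probe set the change was 0.08 (adjusted p = 0.86). The call on trans fat and HFCS held in only 2 of 17 settings and ended without any 1 array (log2 0.41 to 0.51, adjusted p between 0.067 and 0.14). Against control on the trans-fat/HFCS diet it ended with the replicate block (adjusted p = 0.058) and without any 1 array of the control, MSG or trans-fat/HFCS diet (0.051 to 0.22), and on the combined diet with the block (0.059) and without any 1 array (0.051 to 0.21). With the brightest probe set the change of DNAJC17 was 0.049 on the trans-fat/HFCS diet (adjusted p = 0.95) and 0.00021 on the combined diet (adjusted p = 1), and the 75th percentile filter, which leaves that probe set alone, gave the same values (0.95 and 1). With dim probe sets kept in, the changes were 0.36 (adjusted p = 0.083) and 0.34 (0.11).

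**Figure D4:**
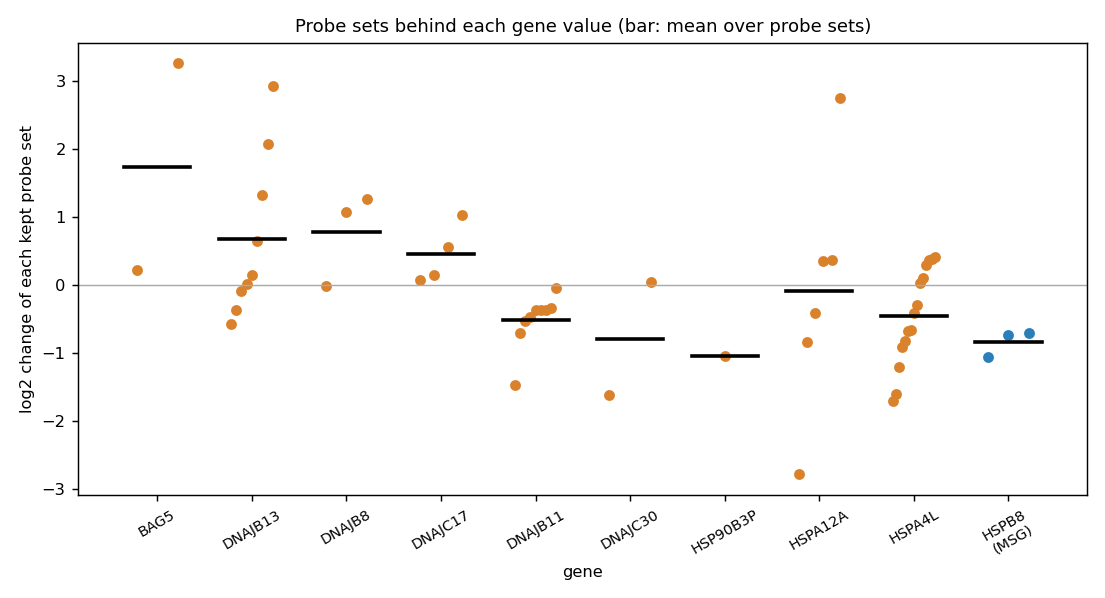
Log2 change (vertical axis) of each kept probe set of 10 genes, for diets with minus without trans fat and HFCS (orange) and, for HSPB8, with minus without MSG (blue); bars are the mean over the probe sets, which is the gene's change. BAG5 and DNAJC30 each rest on 1 moving and 1 still probe set, DNAJB11 and HSPB8 have all probe sets on one side of 0, and HSPA12A has probe sets at 2.76 and -2.78.

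In the HSP90 family 1 of 13 tested symbols was called (7.69%), beside 7.66% of all genes, and the median was 0.09. HSP90B3P rests on 1 of 3 probe sets, which stood at 3.41 and 3.74 on control, 4.24 and 3.54 on MSG, 3.02 and 2.96 on trans-fat/HFCS and 2.42 and 2.34 on the combined diet. The sets did not overlap, and the combined diet was the lowest. The change was -1.05 (SE 0.17, adjusted p = 0.0097). As the name is that of a human pseudogene of HSP90B1, with which it shares sequence, the transcript that this probe set reads in cat liver is uncertain. The call held in 15 of 16 settings and ended without both trans-fat/HFCS arrays (log2 -0.75, adjusted p = 0.11). Over all 16 the change lay between -1.22 and -0.44, and it was smallest in size with dim probe sets kept in.

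HSP90B1, the HSP90 of the ER, was read by 12 probe sets. It stood at 7.54 and 7.64 on control, 7.96 and 7.35 on MSG, 7.13 and 7.32 on trans-fat/HFCS and 7.02 and 7.36 on the combined diet. MSG array 2 lay below combined-diet array 2, and the change of -0.42 (SE 0.16) did not pass (adjusted p = 0.16). HSP90B2P, another pseudogene symbol of HSP90B1 read by 1 probe set, had -0.63 (SE 0.17, adjusted p = 0.053). The cytosolic HSP90AB1, the constitutive form, stood between 5.86 and 6.58 on all arrays (-0.08, SE 0.18). HSP90AA1, the inducible form, had 0.40 (SE 0.17, adjusted p = 0.18).

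Of the 13 tested HSPA genes none passed in limma, beside 7.66% of all genes, and the median was -0.04. There was 1 at an unadjusted p under 0.05 (7.69%), beside 24.5% of all genes. HSPA4L, an HSP110-type exchange factor, had the smallest p. It stood at 3.96 and 4.05 on control, 3.47 and 3.35 on MSG, 3.32 and 3.31 on trans-fat/HFCS and 3.10 and 3.32 on the combined diet. Both control arrays were above the 6 others, and the diets with trans fat and HFCS lay below those without. Its change of -0.45 (SE 0.12) had an adjusted p of 0.0501 and thus lay just outside the threshold, with DNAJB11 (0.047) just inside. HSPA6, a strictly stress-induced form in humans, had 0.39 (SE 0.18, adjusted p = 0.22) on 1 probe set.

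The HSPA genes with the highest mean intensity moved by less than 2 SE. These were HSPA5 (BiP), the HSP70 of the ER, between 6.68 and 7.35 (-0.30, adjusted p = 0.30), the mitochondrial HSPA9 between 6.39 and 6.99 and the ER-associated HSPA13 between 5.44 and 6.28. The change of HSPA5 turned positive with the brightest probe set (0.26) and with the median of the probe sets (0.06). The constitutive cytosolic HSPA8 lay between 4.82 and 5.86 (-0.30, adjusted p = 0.34).

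None of the families HSPD/HSPE, HSPH, HSPB or DNAJA had a member called for trans fat and HFCS in limma, beside 7.66% of all genes. They hold 2, 1, 10 and 4 tested genes, with 0, 0, 2 and 0 at an unadjusted p under 0.05, beside 24.5% of all genes. With so few genes, the lack of a call says little about a family. HSPE1 stood at 8.62 and 8.11 on control, 8.65 and 8.37 on MSG, 7.96 and 8.07 on trans-fat/HFCS and 7.96 and 8.34 on the combined diet (-0.36, SE 0.16, adjusted p = 0.21). Its partner HSPD1 had -0.19 (SE 0.23, adjusted p = 0.65). HSPH1 had 0.03 (SE 0.12, adjusted p = 0.90). Among the DNAJA genes, the co-chaperones of cytosolic and mitochondrial HSP70, DNAJA3 had 0.30 (SE 0.14, adjusted p = 0.24) and DNAJA4 0.29 (SE 0.20, adjusted p = 0.40). DNAJA1 had 0.11 (SE 0.17, adjusted p = 0.74), and DNAJA2, between 7.58 and 7.79 on all arrays, 0.02 (SE 0.11, adjusted p = 0.92). HSPB1, the heat-induced small heat shock protein of many tissues, lay between 3.96 and 4.52 (0.02, SE 0.15), and HSPBP1, an exchange factor, had 0.32 (SE 0.11, adjusted p = 0.12).

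Grouped by place in the cell, which was done after the values were seen and gets no test, 11 of 14 ER members had a negative change with trans fat and HFCS and 1 passed, beside 47.7% negative changes over all genes. Their median was -0.13, beside 0.02 for all genes. The negative ones were HSP90B1, HSPA5, HSPA13, DNAJB9, DNAJB11, DNAJC1, DNAJC3, DNAJC10, DNAJC14, DNAJC16 and DNAJC25. The ER membrane proteins DNAJB12 (0.41), DNAJB14 (0.058) and DNAJC18 (0.14) had positive changes. DNAJC3, which restrains the stress kinase PERK, stood at 7.74 and 7.82 on control, 7.81 and 7.56 on MSG, 7.49 and 7.26 on trans-fat/HFCS and 7.32 and 7.24 on the combined diet. Its 4 arrays with trans fat and HFCS lay below the other 4, and the change of -0.41 (SE 0.12) did not pass (adjusted p = 0.079). The other DNAJC genes of highest intensity were DNAJC12 (-0.33, SE 0.13, adjusted p = 0.16) and DNAJC21, which acts in ribosome assembly (0.02, SE 0.13, adjusted p = 0.95).

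The count of negative ER members depended on the summary of probe sets. It was 6 of 14 with the brightest probe set, 9 with the median of the probe sets and between 9 and 12 in the other settings. The 8 members of mitochondria did not share a direction: 3 had a positive and 5 a negative change, with a median of -0.10. Among 9 nucleotide exchange factors of HSPA proteins (BAG1 to BAG5, HSPH1, HSPA4, HSPA4L and HSPBP1), 7 changes were positive and 2 negative. Their median was 0.14, and over all genes 47.7% of changes were negative. Against control, 5 of the 9 were positive on the trans-fat/HFCS diet and 4 on the combined diet. The signs of BAG1, BAG2, BAG4 and HSPH1 turned in other settings.

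When each probe set was tested on its own in limma, 12 of 496 member probe sets passed for trans fat and HFCS (2.42%), beside 2.45% of all kept probe sets. They belonged to 9 genes, of which 3 (BAG5, DNAJB13 and DNAJC30) were also called by their mean. In the other 6 genes 1 or more probe sets passed while the gene's mean did not. In HSPA12A, an atypical HSP70 relative, one rose from between 2.68 and 3.72 to between 5.32 and 6.19, and another fell from between 4.00 and 6.57 to between 1.91 and 3.34. In DNAJC12, which folds the aromatic amino acid hydroxylases, one stood at 5.69 and 5.56 on control, 5.79 and 5.68 on MSG, 2.82 and 3.50 on trans-fat/HFCS and 5.01 and 5.02 on the combined diet. In DNAJC1, a J protein of the ER, one stood at 8.51 and 8.90 on control, 8.33 and 8.67 on MSG, 6.71 and 6.40 on trans-fat/HFCS and 8.21 and 7.59 on the combined diet (-1.37). Probe sets of DNAJC14 (-2.31), HSPA4L (-1.61) and DNAJC27 (1.49) also passed.

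The second comparison asked what MSG did, averaged over both base diets. HSPB8, a small heat shock protein that works with BAG3, fell 1.78-fold, and no other member was called. This was 1 of 88 members, beside 0.329% of all genes. HSPB8 stood at 4.59 and 4.42 on control, 3.63 and 3.33 on MSG, 4.05 and 3.88 on trans-fat/HFCS and 3.31 and 3.34 on the combined diet. All 4 arrays with MSG lay below the 4 without, and the trans-fat/HFCS diet lay between. The log2 change was -0.83 (SE 0.13, adjusted p = 0.032 in limma).

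The 3 kept probe sets of HSPB8 changed by -1.05, -0.74 and -0.71, and none passed on its own. Against control it was 2.26-fold lower on the combined diet (log2 -1.18, SE 0.18, adjusted p = 0.024), -1.02 on MSG (SE 0.18, adjusted p = 0.071) and -0.54 on trans-fat/HFCS (SE 0.18, adjusted p = 0.15). The call for MSG ended without any 1 array (log2 -0.87 to -0.50, adjusted p between 0.074 and 0.47), and in 14 of 17 settings in all. That on the combined diet was lost on leaving out any single array but trans-fat/HFCS array 2 (log2 -1.19 to -0.71, adjusted p between 0.065 and 0.36), with the 75th percentile filter (adjusted p = 0.073), with the brightest probe set (0.15) and with the median of the probe sets (0.25). The skeletal muscle markers also differed in this comparison: 9 of 14 were called lower with MSG, with a summed level of log2 7.79 to 7.92 on the 4 arrays with MSG and 7.86, 7.89, 9.74 and 9.75 on the 4 without. Without both trans-fat/HFCS arrays the change of HSPB8 was -0.84 (adjusted p = 0.20).

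At an unadjusted p under 0.05 there were 9 members for MSG (10.2%), against 7.91% of all genes. They included HSPH1, an exchange factor induced by heat, which stood at 6.06 and 5.69 on control, 5.10 and 5.13 on MSG, 5.55 and 5.61 on trans-fat/HFCS and 5.48 and 5.47 on the combined diet. Both MSG arrays were the lowest (log2 -0.43, SE 0.12, adjusted p = 0.39). HSPB2, a small heat shock protein of muscle, had 0.65 (SE 0.21, adjusted p = 0.46), HSPA13 had 0.40 (SE 0.16, adjusted p = 0.58) and BAG2 -0.41 (SE 0.16, adjusted p = 0.58). All 5 BAG genes had a negative MSG change, beside 49.2% of all genes, and none passed. The changes lay between -0.45 for BAG5 and -0.01 for BAG4 (SE 0.13). On the MSG diet against control, BAG4 had a positive change (0.11). Without combined-diet array 2 the change of BAG5 was 0.01.

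Among the HSPB genes, 4 that are known from muscle (HSPB2, HSPB3, HSPB6 and HSPB7) and the related CRYAB were set beside the skeletal muscle markers. On the trans-fat/HFCS arrays HSPB2 stood at 2.29 and 2.26, HSPB6 at 2.76 and 2.98 and HSPB7 at 2.35 and 2.20, each below the lower control array. Those of HSPB2 and HSPB7 are under the filter of 2.43, with lower control arrays at 2.41 and 2.37. HSPB2 was read by 1 kept probe set, and HSPB3, HSPB6 and HSPB7 by 2 each. A probe set that carries the names of both HSPB2 and C11orf52 lay between 9.53 and 9.71 on all arrays. HSPB3 stood at 2.63 and 3.41 against 2.30 and 2.51 on control, and CRYAB at 5.28 and 5.23 against 5.38 and 5.50. None of the 5 was called in any of the 6 comparisons in limma. The muscle marker ACTA1 stood at 7.57 and 7.60 on the same arrays, against 4.71 and 4.74 on control. The part of the muscle signal in the results of other members was not tested.

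**Figure D5:**
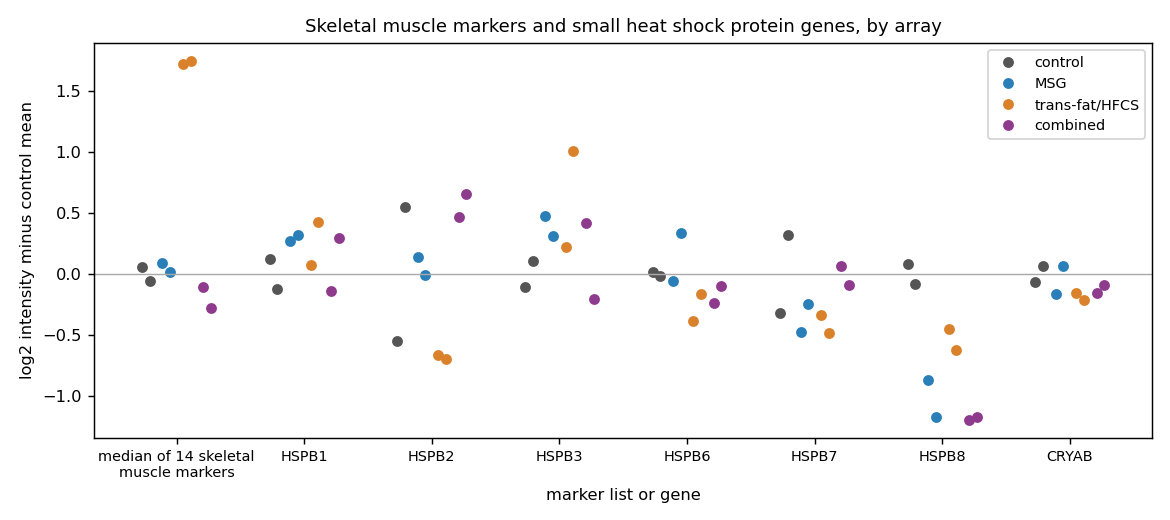
Log2 intensity minus the control mean (vertical axis) for the median of 14 skeletal muscle markers and for 7 small heat shock protein genes, on each of the 8 arrays; points are arrays, colored by diet. The muscle median is high on the pair of trans-fat/HFCS arrays and near or below 0 elsewhere; on that pair HSPB2, HSPB6, HSPB7, HSPB8 and CRYAB lie below the control mean and HSPB3 above it.

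The interaction asked whether the MSG difference depended on the base diet. No member was called in limma, beside 0.151% of all genes, and 8 members (9.09%) had an unadjusted p under 0.05, against 9.07% of all genes. The largest value in size, named after it was seen, was that of HSP90AA1 (1.36, SE 0.33, adjusted p = 0.28). It stood at 4.11 and 4.28 on control, 3.79 and 3.37 on MSG, 3.73 and 4.10 on trans-fat/HFCS and 4.41 and 4.90 on the combined diet. MSG was thus the lower diet on chow and the higher one on the trans-fat/HFCS base. HSPBP1, highest on the combined diet (4.71 and 4.69, against 3.96 to 4.33 on the other 6 arrays), had 0.82 (SE 0.22, adjusted p = 0.33), and HSPB2 1.18 (SE 0.43, adjusted p = 0.46).

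Each diet was also set against control, with 2 arrays each. On the trans-fat/HFCS diet BAG5, DNAJB13 and DNAJC17 rose and DNAJC30 fell, 4 of 88 members (4.55%), beside 2.48% of all genes. On the combined diet DNAJC17 rose and HSPB8 fell, 2 of 88 members (2.27%), beside 1.16% of all genes. On the MSG diet no member was called in limma, beside 0.296% of all genes, and 8 (9.09%) had an unadjusted p under 0.05, against 7.64% of all genes. The 3 contrasts share the control arrays.

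The change with trans fat and HFCS is the mean of 2 differences. These were also read singly, without MSG (trans-fat/HFCS against control) and with it (combined against MSG). The sign was the same in 57 of 88 members (64.8%) and in 62.7% of all genes. The 7 called genes were picked by the mean of both differences, so a shared sign in them is no separate test. In the order without and with MSG, the differences were 2.02 and 1.48 for BAG5, 0.87 and 0.49 for DNAJB13, 0.91 and 0.64 for DNAJB8, 0.82 and 0.09 for DNAJC17, -0.39 and -0.64 for DNAJB11, -0.86 and -0.71 for DNAJC30 and -0.58 and -1.51 for HSP90B3P. The MSG change had the same sign on both base diets in 47 of 88 members (53.4%) and in 48% of all genes.

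Of 46 listed genes that are not members but work with them (heat shock factors, HSP90 co-chaperones, the chaperonin CCT and prefoldin), 45 were tested. FKBP5, a co-chaperone of HSP90 in steroid receptor complexes, rose with trans fat and HFCS and none of the 45 fell. It stood at 3.70 and 3.66 on control, 3.13 and 2.78 on MSG, 5.31 and 4.85 on trans-fat/HFCS and 4.80 and 4.84 on the combined diet (log2 1.63, SE 0.14, adjusted p = 0.0006). The median of the list was 0.01. Named after the values were seen, HYOU1, an exchange factor of the ER, had -0.34 (SE 0.11, adjusted p = 0.096 in limma). SGTB, also not called, had -0.41 (SE 0.13, adjusted p = 0.092). The listed SIL1 and SERPINH1, also of the ER, had -0.04 (SE 0.22, adjusted p = 0.94) and -0.07 (SE 0.16, adjusted p = 0.83). None of the 45 was called for MSG or the interaction in limma.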

How the data were processed

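The authors deposited 1 normalized intensity per probe set and array on a linear scale (lowest 2.22, highest 22966); per the submitters' processing notes, GCRMA, Partek and hg19 were used, with no version or role given. RNA (250 ng a sample) came from 4 to 5 livers per diet, per the labels' protocols, and 2 arrays per diet were analysed here. Gene symbols are those of the platform annotation. Here values were log2 transformed. Probe sets with a mean over the 8 arrays above the median of all probe sets (log2 2.43) were kept, 128550 in number. Of these, the 111624 with 1 gene were averaged per gene. A 4-group model was fitted to all 8 arrays and 17910 genes by lmFit and eBayes of limma 3.58.1 under R 4.3.3 (two-sided tests, 4 residual degrees of freedom, prior 5.01), with Benjamini-Hochberg adjustment over all genes. Main effects average 2 differences between diets. Errors beside log2 changes are moderated standard errors. The code of the fit was checked on simulated data with independent normal noise, which holds no disagreement between probe sets and no muscle signal.

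The members, lists and alternatives were chosen with earlier results of these data known. Named were every member called in any of 6 comparisons, all BAG genes, the 3 members of highest mean intensity in each other family, the 2 of smallest p in families with no call in a main effect, and called genes of the related list; further members are named where the text says so or where a group is described. Intensities of different genes are not comparable as amounts. Sequences were not used here.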

Additional observations from a re-analysis of the deposited data

How the results depend on the processing

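The number of members called was recomputed under 9 kinds of alternative, and a changed count is given where it differs by over 1.5 times. The share of all genes called in the same setting stands in brackets. Counts alike can hold other genes. With the brightest probe set 8 members were called for trans fat and HFCS (12.2%), 4 of them among the 7 called in the Results. With the 75th percentile filter 7 were called (14.1%), of which 4 were shared. On the combined diet the brightest probe set gave 2 members (4.08%) and the 75th percentile filter 3 (3.52%), with 0 shared. For trans fat and HFCS 7 members were called (7.66%), 4 with the median of the probe sets (3.32%), 0 without both trans-fat/HFCS arrays (1.27%), and 3 to 6 without any 1 array: 3 without control array 1 (2.63%), control array 2 (2.75%) or MSG array 1 (2.43%), 4 without trans-fat/HFCS array 1 (4.03%) or 2 (3.87%), and 6 without combined-diet array 2 (6.88%). BAG5, DNAJC30 and HSP90B3P were among the members called without each single array. For MSG 1 member was called (0.329%), and 0 with dim probe sets kept in, with the 75th percentile filter, with the brightest or the median probe set, with each probe set tested on its own, in the additive model, without both trans-fat/HFCS arrays and without any 1 array (0 to 0), with 0.00558% to 0.804% of all genes over these settings. Against control, 4 were called on the trans-fat/HFCS diet (2.48%), 2 without the filter (2.20%), 1 with the median of the probe sets (1.01%) and 0 to 5 without any 1 array (0.363% to 3.02%; 0 members without control array 1 or 2 or trans-fat/HFCS array 1 or 2, 1 without MSG array 1 or 2). For the combined diet 2 were called (1.16%), 0 with the median (0.246%) and with each probe set on its own (0.396% of genes), 4 with an intensity trend in eBayes (2.27%) and 0 to 1 without any 1 array (0% to 0.816%; 0 members when array 1 of the combined or trans-fat/HFCS diet or either control array was left out, 1 without any other). The interaction and the MSG diet had 0 in all settings run.

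With the replicate number as a replicate block, 6 members were called for trans fat and HFCS (5 of them shared with the fit without it; 5.73% of all genes), 1 for MSG (0.296%), 0 for the interaction (0.0614%), 1 for the trans-fat/HFCS diet (1.67%), 0 for the MSG diet (0.19%) and 1 for the combined diet (0.536%). Samples with the same number share only that number: their deviations from the group means correlated between diets with r from -0.06 to 0.04. All genes called for trans fat and HFCS numbered 1372, and 595 with the median of the probe sets, 2056 with the 75th percentile filter, 2182 with the brightest probe set and 228 without both trans-fat/HFCS arrays. Without any 1 array it ranged from 436 (without MSG array 1) to 1232, with 471 and 493 without control array 1 or 2, 719 without MSG array 2, 721 and 694 without trans-fat/HFCS array 1 or 2 and 867 without combined-diet array 1.

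No called change turned sign. Signs were followed over the settings for 39 changes only. Of those that did not pass, BAG2 turned without the filter (-0.027) and with the brightest probe set (-0.38). HSPA5 (0.26), BAG4 (0.032) and DNAJC17 for MSG (-0.083) turned with the brightest probe set. With the 75th percentile filter BAG1 (-0.16), DNAJA4 (-0.023) and DNAJC17 for MSG (-0.083) turned, with the median HSPA5 (0.058), HSPD1 (0.011), HSPH1 (-0.071) and DNAJA4 (-0.092). Without any 1 array, HSPH1 ranged from -0.030 (without control array 2) to 0.14 and BAG5 for MSG from -0.72 to 0.012 (without combined-diet array 2). Outside the 39, changes of ER members with trans fat and HFCS also turned. Among them were HSPA13, DNAJC10, DNAJC14 and DNAJC25, which were positive with the brightest probe set. The cause was not tested.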

Other observations

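HSPA1A and HSPA1B, the heat-inducible HSP70 genes, share most of their probe sets, which carry both names and so fall outside the choice of single-gene probe sets. Of 11 such probe sets 8 were above the filter. Their mean log2 intensity was 6.67 and 6.62 on control, 6.53 and 6.61 on MSG, 6.21 and 6.41 on trans-fat/HFCS and 6.61 and 6.88 on the combined diet. The trans-fat/HFCS arrays were the lowest and combined-diet array 2 the highest. Fitted with the other genes in limma, the pair had a change of -0.08 with trans fat and HFCS (SE 0.12, adjusted p = 0.74) and 0.18 with MSG (SE 0.12, adjusted p = 0.79), and an interaction of 0.52 (SE 0.24, adjusted p = 0.58). The 8 probe sets are not all separate readings, as 1 repeated the values of another on every array. With trans fat and HFCS a dim one (2.41 to 4.08) changed by -0.75 and the others by between -0.20 and 0.18.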
